A study of Rattus norvegicus with 6 samples.

Results

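This report describes 33 genes of the cornified envelope and of the S100 family, among 15037 genes measured in rat tracheal basal cells grown in BEGM or EpiX medium. They were every gene on the array whose platform symbol was S100 followed by letters and an optional number, Sprr with a number, or Tgm with 1 digit, together with 11 of 13 further genes chosen by name (Ivl, Lgals7, Cnfn, Ecm1, Scel, Sbsn, Calml3, Spink5, Evpl, Ppl and Csta). The other two, Krtdap and Cdsn, had no named probe set. The 33 genes comprised 17 envelope genes, 15 S100 genes and S100pbp, which met the rule by its symbol but encodes a protein that binds S100P and is no S100 protein. A further 2 measured S100 genes, S100a7a and S100a7l2, have symbols outside this pattern and were not counted among the 15. Each was represented by 1 probe set.

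The cells were airway basal cells from tracheal scrapings of male wild-type Sprague Dawley rats, 12 weeks old and 370 ± 39 g in weight per the labels, with no genetic change or drug treatment named. There were 3 cell lines, each a pool of cells from 3 animals, and every line was divided at isolation between BEGM, a serum-free bronchial epithelial growth medium, and EpiX, a commercial medium for expanding epithelial cells. RNA was harvested after 8 days, and 3 arrays were run per medium. Arrays are numbered 1, 2 and 3 by the sample number in the labels, and arrays with the same number are treated as coming from the same line, which the labels do not state outright. The main fit and its p-values take no account of these pairs, which enter only the fits with the number as a block. The titles of the samples conflict with these numbers, since arrays 2 of both media bear a 3 in their title and arrays 3 bear none, but the form of the titles joins the same arrays into pairs. The comparison asked how the medium changed cells of the same origin. A whole dish was measured, so more cells of a type and more RNA per cell cannot be told apart.

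The cornified envelope is the protein shell that replaces the plasma membrane of the outermost cells of a stratified epithelium. Scaffold proteins are laid down first under the membrane, small proline-rich proteins bridge them, transglutaminases weld them together through bonds between glutamine and lysine residues, and protease inhibitors control when cells are shed. S100 proteins are small calcium-binding proteins with paired EF-hand motifs, and many of their genes lie beside the envelope genes in a cluster called the epidermal differentiation complex. A healthy tracheal lining is not cornified, but its basal cells can turn on this programme in squamous metaplasia and in culture.

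All values are the authors' deposited log2 signals, and differences are EpiX minus BEGM. The basal identity of the cultures was checked on Krt14, a basal keratin, which lay between 16.38 and 16.85 in BEGM and between 16.75 and 17.13 in EpiX. Basal markers did not all stay level, since of 13 measured 5 rose and 1 fell by limma, where 2.63% of all genes tested rose and 3.15% fell. Krt15 (4.12 ± 0.71, SE), Aqp3 (4.09 ± 0.22), Bcam (3.11 ± 0.19), the basal factor Tp63 (2.15 ± 0.20) and Dapl1 (1.34 ± 0.29) were higher in EpiX, and Pdpn was lower (-2.96 ± 0.21). Of 6 secretory cell markers 2 rose, Pigr (2.34 ± 0.28) and Cyp2f4 (1.74 ± 0.30). The 6 differences ran from -0.85 to 5.72, with 4 positive and 2 negative, and the largest was not called. Except for Krt14 and Tp63, these marker genes were named after their values were seen. Of the 6 ciliated cell markers limma called 0, with 3 at an unadjusted p under 0.05. Foxj1, which marks ciliated cells, lay between 3.78 and 4.62 on all arrays. The array carries 23 background control sets of random sequence, the brightest of which read 6.99 on every array. Values at or below that level are called background-level here, and this held on all 6 arrays for 6859 genes (45.6% of those tested), for 2 of the 17 envelope genes and for 9 of the 15 S100 genes. Of the markers above, Dapl1, Pigr and Cyp2f4 were background-level on all BEGM arrays, and Cyp2f4 on 1 EpiX array too. BEGM array 1 stood apart from the other BEGM arrays for many of the genes described here, so results are given with and without it. It was singled out after these values were seen. Where it was the highest BEGM array, leaving it out enlarges the difference by construction. Adjusted p-values without it are therefore descriptions and not independent support.

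EpiX cultures had more Csta and Lgals7 and less Tgm2 than BEGM cultures. These were the 3 of 33 genes (9.09%) called by limma at a Benjamini-Hochberg adjusted p under 0.05 over all genes, a share near the 5.78% called among all genes tested, 2.63% higher and 3.15% lower in EpiX (395 and 474 genes). After median centring of the arrays the split became 560 higher and 409 lower, since the median of all differences moved from 0.00 to 0.13. At an unadjusted p under 0.05 there were 10 of the 33 genes and 3377 of all genes. The median difference was 1.38 over the 17 envelope genes and 0.03 over the 15 S100 genes, against 0.00 over all genes tested. In 5 of the 33 genes all EpiX arrays lay above all BEGM arrays, and in 2 they lay below, compared with 13.5% and 14.5% of all genes.

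**Figure D1:**
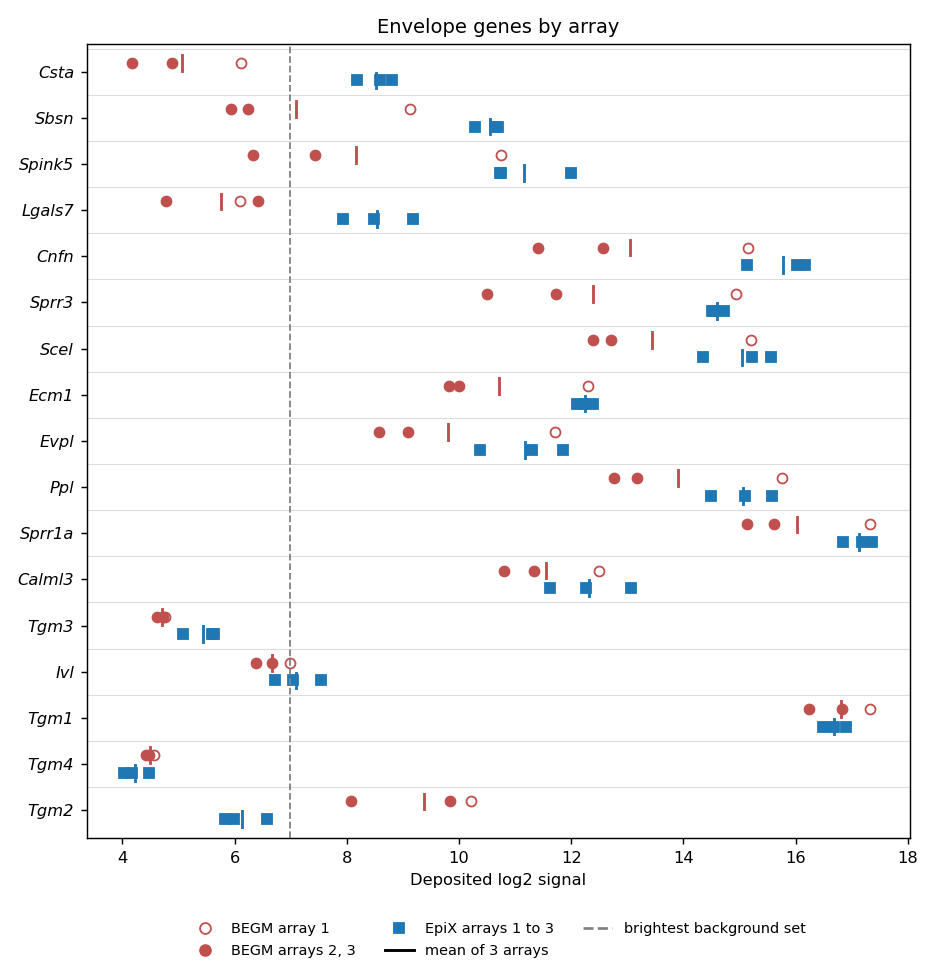
Deposited log2 signal (horizontal axis) of the 17 envelope genes on each array, with BEGM array 1 as open circles, BEGM arrays 2 and 3 as filled circles and the EpiX arrays as squares. Vertical strokes mark the mean of the 3 arrays of a medium and the dashed line the brightest background set at 6.99. For most genes from Sbsn to Calml3, BEGM array 1 lies among or near the EpiX arrays and apart from BEGM arrays 2 and 3.

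Csta encodes cystatin A, an inhibitor of cysteine proteases that is itself built into the envelope. For arrays 1, 2 and 3 in that order, as throughout, it read 6.12, 4.89 and 4.17 in BEGM and 8.17, 8.81 and 8.60 in EpiX. Every EpiX array was above every BEGM array, and the BEGM values were all background-level. Csta rose by 3.47 ± 0.47 (SE, n = 3 per medium, limma adjusted p = 0.0120), an 11.1-fold measured difference. With the BEGM level set to the brightest background set, its EpiX mean was 2.91-fold higher. This size, like those given so below, leaves out the spread between arrays. The gene has close paralogs of the stefin A family beside it, and how far this probe set separates them is not given in the sources used here.

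Spink5 encodes a serine protease inhibitor that restrains the kallikreins which cut desmosomal links during shedding. It read 10.74, 6.33 and 7.43 in BEGM against 12.00, 10.75 and 10.73 in EpiX, so that BEGM array 1 lay within the lower EpiX values while the other BEGM arrays were below them. The difference of 2.99 ± 1.06 (SE) did not pass over 6 arrays (adjusted p = 0.156). It passed with the array number as a fixed block (adjusted p = 0.0382) but not as a random one (0.108), and it passed, at 4.28 ± 0.48, without BEGM array 1 (adjusted p = 0.00261).

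Lgals7 encodes galectin-7, a sugar-binding protein typical of stratified epithelium. Its signal was 6.10, 6.42 and 4.78 in BEGM, all background-level, and 9.17, 7.93 and 8.49 in EpiX. The groups did not overlap, and here BEGM array 1 kept to the other BEGM arrays. Lgals7 rose by 2.76 ± 0.48 (SE, limma adjusted p = 0.0241), a 6.80-fold measured difference and, by its EpiX mean, 2.91-fold against the brightest background set.

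Sbsn encodes suprabasin, a secreted protein of the layers above the basal one. It read 9.13, 6.23 and 5.93 in BEGM and 10.29, 10.69 and 10.65 in EpiX. All EpiX arrays were higher, but BEGM array 1 was far above the background-level values of BEGM arrays 2 and 3. The difference of 3.45 ± 0.79 (SE) narrowly missed the threshold (adjusted p = 0.0539), and passed with the number as a block (adjusted p = 0.0442) and without BEGM array 1 (4.46 ± 0.20; adjusted p = 0.000136).

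Cnfn encodes cornifelin, a minor envelope component. It read 15.16, 11.40 and 12.56 in BEGM against 15.14, 16.02 and 16.18 in EpiX, a difference of 2.74 ± 0.88 (SE) that did not pass (adjusted p = 0.129). Ecm1, a secreted glycoprotein of differentiating keratinocytes, read 12.30, 9.83 and 9.999 against 12.25, 12.10 and 12.39, and its difference of 1.54 ± 0.62 did not pass either (adjusted p = 0.202). Within pair 1 the difference was -0.02 for Cnfn and -0.04 for Ecm1, whereas the other 2 pairs were higher in EpiX by 4.62 and 3.61 for Cnfn and by 2.28 and 2.39 for Ecm1. Calml3, a calmodulin-like protein of epithelial cells, was higher in EpiX in each of the 3 pairs, by 0.58, 0.92 and 0.82. Its levels overlapped between the media (0.77 ± 0.51; adjusted p = 0.432), and it passed with the number as a fixed block (adjusted p = 0.0445) but not as a random one (0.341).

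Sprr1a and Sprr3 encode small proline-rich proteins that bridge other envelope proteins. Sprr3 read 14.94, 10.50 and 11.73 in BEGM and 14.51, 14.55 and 14.72 in EpiX. BEGM array 1 was thus the highest of all 6 arrays, and BEGM array 2 was more than 4 units below any EpiX array. The difference of 2.20 ± 1.01 (SE) did not pass (adjusted p = 0.259), while without BEGM array 1 it was 3.48 ± 0.34 (adjusted p = 0.00173). In Sprr1a, too, BEGM array 1 lay among the EpiX arrays, with 17.32, 15.61 and 15.13 in BEGM and 17.37, 17.18 and 16.84 in EpiX. Its difference was 1.11 ± 0.53 over 6 arrays (adjusted p = 0.281) and 1.76 ± 0.23 without BEGM array 1 (adjusted p = 0.00487).

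Of the scaffold genes, Scel, Ppl and Evpl again had BEGM array 1 among the EpiX arrays or above them. Scel, which encodes sciellin, read 15.21, 12.39 and 12.71 in BEGM and 15.56, 15.23 and 14.35 in EpiX (1.61 ± 0.74, SE; adjusted p = 0.260). Ppl and Evpl encode the plakins periplakin and envoplakin, which tie keratin filaments and desmosomes to the envelope and work as partners. Ppl read 15.76, 13.17 and 12.77 in BEGM and 15.58, 15.11 and 14.49 in EpiX, and Evpl read 11.72, 9.10 and 8.58 against 11.86, 11.30 and 10.37. For both plakins BEGM arrays 2 and 3 lay below all EpiX arrays. The differences of 1.16 ± 0.76 for Ppl (adjusted p = 0.430) and 1.38 ± 0.81 for Evpl (adjusted p = 0.382) did not pass. Without BEGM array 1, Scel was higher by 2.50 ± 0.35 (adjusted p = 0.00622), Ppl by 2.09 ± 0.33 (adjusted p = 0.00864) and Evpl by 2.34 ± 0.42 (adjusted p = 0.0143). Ivl, which encodes the early scaffold involucrin, was near background on every array, at 6.98, 6.38 and 6.66 in BEGM and 6.71, 7.04 and 7.54 in EpiX, and did not pass in either fit (0.42 ± 0.26; adjusted p = 0.393 over 6 arrays and 0.216 without BEGM array 1).

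Promoter sequence was available for 25 of the 33 genes in a RefSeq table for GRCr8, and the 250 bases before each start were searched on both strands for 4 motifs (Sbsn has 2 listed starts, and a match at either was counted). TGANTCA, the site of AP-1, a Fos and Jun transcription factor active in stratified differentiation, was found for 4 of 14 envelope genes (28.6%; Ecm1, Sbsn, Scel and Sprr1a), for 0 of 11 S100 genes and in 6.34% of all 33469 windows. TATAAA, the TATA box, was found for 5 of 14 envelope genes (35.7%), 2 of 11 S100 genes (18.2%) and in 12.9% of all windows. GGGNGGG, a GC-rich box bound by Sp and Klf factors, was found for 6 of 14 (42.9%), 2 of 11 (18.2%) and in 41.6%, and CCAAT for 4 of 14 (28.6%), 3 of 11 (27.3%) and in 34.0%. Upstream stretches are shown for an envelope gene with a repeated AP-1 motif and a TATA box (Sprr1a), for one with a single AP-1 motif (Ecm1) and for the S100 gene with the largest difference (S100a4). They run 5′ to 3′ on the gene's strand, from chr2:180752626-180752815 (minus strand, 190 bases), chr2:185981657-185981796 (minus, 140 bases) and chr2:178388339-178388528 (plus, 190 bases) of GRCr8, with AP-1 and TATA motifs in capitals. The stretches of Sprr1a and S100a4 end at the start, whereas that of Ecm1 stops 50 bases before it, where the RefSeq gene begins, so that the Ecm1 TATA box, 42 bases before the start, is not in it.
Sprr1a: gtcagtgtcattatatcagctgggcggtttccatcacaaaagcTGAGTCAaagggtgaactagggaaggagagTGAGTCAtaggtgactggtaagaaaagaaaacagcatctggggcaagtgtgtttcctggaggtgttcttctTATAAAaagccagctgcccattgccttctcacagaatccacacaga
Ecm1: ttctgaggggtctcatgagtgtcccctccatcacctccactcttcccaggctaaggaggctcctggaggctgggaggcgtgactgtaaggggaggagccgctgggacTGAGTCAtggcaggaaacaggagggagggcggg
S100a4: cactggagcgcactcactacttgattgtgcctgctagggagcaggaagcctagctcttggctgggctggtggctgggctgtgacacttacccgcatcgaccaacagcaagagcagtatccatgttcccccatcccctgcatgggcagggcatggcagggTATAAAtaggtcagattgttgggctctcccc
In Sprr1a the AP-1 motifs begin 147 and 117 bases before the start and the TATA box 46 bases before it. These matches describe the letters in the window and say nothing of binding.

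Of the 4 transglutaminases, 1 fell and 3 did not pass. Tgm1, the membrane-bound keratinocyte enzyme, read 17.33, 16.83 and 16.24 in BEGM and 16.68, 16.90 and 16.50 in EpiX. The EpiX arrays lay inside the BEGM range, and the difference of -0.11 ± 0.28 (SE; adjusted p = 0.872) had a 95% interval from -0.77 to 0.56. Its sign turned to 0.02 with each array centred on its median and to 0.04 with array weights. Tgm2, the widely expressed tissue transglutaminase that also cross-links extracellular matrix, read 10.21, 9.84 and 8.07 in BEGM and 5.82, 6.58 and 5.99 in EpiX. All EpiX arrays were below all BEGM arrays and at background level. Tgm2 fell by 3.24 ± 0.54 (SE, limma adjusted p = 0.0215), a 9.45-fold measured difference and, by its BEGM mean, 5.22-fold against the brightest background set. Tgm3, the epidermal enzyme, was at background level on all arrays (4.62 to 4.76 in BEGM and 5.08 to 5.63 in EpiX; 0.74 ± 0.18, adjusted p = 0.0675), as was Tgm4, the prostate enzyme (4.03 to 4.57 on all arrays).

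The calls on Csta, Lgals7 and Tgm2 depended on which array was left out, and any array left out also leaves fewer samples for the test. Leaving out BEGM array 1 or BEGM array 3 kept all 3 calls. Leaving out BEGM array 2, EpiX array 1 or EpiX array 2 ended all 3 calls by limma, with adjusted p-values of 0.0712, 0.0517 and 0.0741 for Csta, 0.0664, 0.0861 and 0.0752 for Lgals7, and 0.101, 0.0874 and 0.0840 for Tgm2. Leaving out EpiX array 3 ended the calls on Lgals7 (0.0709) and Tgm2 (0.0689). Leaving out both arrays numbered 2 ended all 3 calls in a fit where limma called 0 of all genes and 1582 had an unadjusted p under 0.05, and leaving out both numbered 3 ended those on Csta (0.0511) and Lgals7 (0.0719). Over every setting that left out arrays, singly or by number and including those that kept the calls, the difference stayed within a range. It lay between 2.99 and 4.17 for Csta, between 2.27 and 3.39 for Lgals7 and between -3.89 and -2.66 for Tgm2.

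Without BEGM array 1, by contrast, 11 envelope genes were called higher by limma, compared with 6.57% of all genes tested, and Tgm2 was the 1 called lower, compared with 7.32% of all genes. The 11 were Csta, Sbsn, Spink5, Lgals7, Cnfn, Sprr3, Scel, Ecm1, Evpl, Ppl and Sprr1a. Since the array was singled out on these same genes, this count describes its weight and is no further support for a rise. With the number as a fixed block 6 genes were called higher (Csta, Lgals7, Sbsn, Spink5, Calml3 and S100g) and 2 lower (Tgm2 and S100a4), compared with 3.94% and 4.39% of all genes. With it as a random block Spink5, Calml3, S100g and S100a4 did not pass. Of the 17 envelope genes, BEGM array 1 was the highest of the BEGM arrays in 16 (94.1%), Lgals7 being the exception, against 5 of 15 S100 genes (33.3%) and 33.5% of all genes tested. It lay nearer to the EpiX mean than to the mean of the other BEGM arrays in 12 envelope genes (70.6%) and in 11 S100 genes (73.3%), against 53.2% of all genes. For the S100 genes this placing says little, since their median difference was 0.03 and 9 of the 15 were background-level throughout. Averaged over the 17 envelope genes, the signal was 11.23, 9.38 and 9.21 for BEGM 1, 2 and 3, and 11.37, 11.31 and 11.15 for EpiX 1, 2 and 3.

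**Figure D2:**
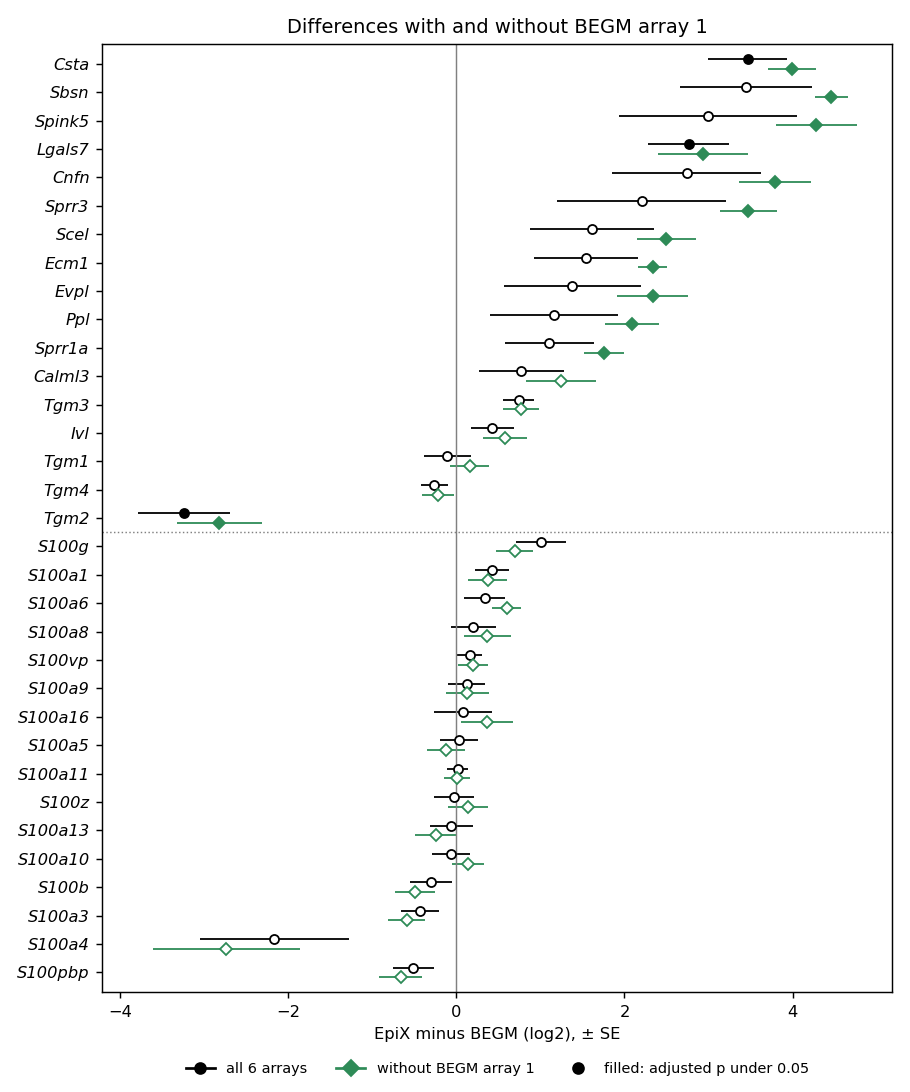
Difference between the media (EpiX minus BEGM, log2, with its SE) for each of the 33 genes over all 6 arrays (black circles) and without BEGM array 1 (green diamonds), with symbols filled where the limma adjusted p was under 0.05. Above the dotted line, 3 envelope genes are filled over 6 arrays and 12 without BEGM array 1, while no S100 gene is filled in either fit.

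In the S100 family 0 of 15 genes were called by limma over 6 arrays, compared with 5.78% of all genes tested. An unadjusted p under 0.05 was found for 2 (S100a4 and S100g), compared with 3377 of all 15037 genes. With 15 genes, 9 of them background-level throughout, 0 calls is near the share of all genes. Without BEGM array 1, 0 were called as well, compared with 6.57% of all genes higher and 7.32% lower. The family's mean signal ranged from 8.36 to 8.49 in BEGM and from 8.35 to 8.44 in EpiX. The other 13 genes had differences between -0.43 and 0.43.

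S100a4, whose upstream stretch is shown above, encodes a protein that binds non-muscle myosin and is abundant in fibroblasts and other motile mesenchymal cells. It read 9.85, 10.29 and 12.85 in BEGM and 7.79, 8.60 and 10.11 in EpiX. Within each numbered pair EpiX was lower, by 2.06, 1.69 and 2.74 units, but EpiX array 3 overlapped the BEGM range. The difference of -2.16 ± 0.88 (SE) did not pass over 6 arrays (adjusted p = 0.209) and passed with the number as a fixed block, where its SE was 0.23 (adjusted p = 0.0105), but not as a random one (0.140). Averaged over 10 fibroblast markers, the signal was 6.28, 6.98 and 9.83 for BEGM 1, 2 and 3 and 5.14, 5.18 and 5.58 for EpiX 1, 2 and 3, the same order of arrays within each medium as in S100a4. Singly, 5 of the 10 kept that order and 5 did not. All EpiX means of this list lay below the brightest background set (6.99), so the order within EpiX ranks background-level means. All 10 differences were negative, with a median of -2.41, and in 8 the groups did not overlap. By limma 0 of the 10 were called over 6 arrays, with 6 at an unadjusted p under 0.05, while 3 were called lower with the fixed block and 5 without BEGM array 1. Of the 10, 1 was at background level throughout. Col1a1, the defining collagen, lay between 7.44 and 12.34 in BEGM and between 5.14 and 5.82, all background-level, in EpiX. Of 6 smooth muscle markers 3 fell, where 3.15% of all genes tested did. They were Cnn1 (-7.00 ± 0.74, SE), Tagln (-6.97 ± 0.53) and Acta2 (-2.91 ± 0.36), which were named after their values were seen. Cnn1 was background-level on all EpiX arrays, so the size of its difference depends on that level. The mean of the 6 was 8.93, 9.79 and 9.74 in BEGM and 6.28, 6.68 and 6.57 in EpiX. Tgm2 did not share the array order of S100a4. In BEGM it read 10.21, 9.84 and 8.07, highest on the array where the fibroblast and smooth muscle means were lowest. The part of such cells in the differences of S100a4 and Tgm2 was not tested.

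S100g encodes calbindin-D9k, a calcium carrier of the intestine and uterus. It read 4.60, 5.37 and 5.70 in BEGM and 6.05, 6.09 and 6.54 in EpiX. The groups did not overlap, but all 6 values were background-level. The difference of 1.00 ± 0.30 (SE) did not pass (adjusted p = 0.107), passed with the number as a fixed block (adjusted p = 0.0415) and did not as a random one (0.0701).

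S100a11, which binds annexin A1 and is also cross-linked into envelopes, was bright in both media, at 18.09, 18.10 and 18.12 in BEGM and 18.06, 18.19 and 18.10 in EpiX. Its difference of 0.02 ± 0.13 (SE; adjusted p = 0.964) had a 95% interval from -0.28 to 0.31. The highest value deposited for any probe set was 18.66, and whether the S100a11 signal is limited by a ceiling was not tested. S100a10, the partner of annexin A2, lay between 15.62 and 16.41 in BEGM and between 15.77 and 16.08 in EpiX. S100a6, or calcyclin, read 15.07, 14.31 and 14.27 in BEGM and 15.09, 14.77 and 14.80 in EpiX, with BEGM array 1 again beside the EpiX arrays (0.34 ± 0.25; adjusted p = 0.484). S100a16, a widely expressed family member, lay between 11.11 and 12.43 in BEGM and between 11.62 and 12.23 in EpiX, and S100a1, best known from heart and skeletal muscle, between 7.70 and 8.02 and between 7.90 and 8.56. The groups overlapped for each of these 5 genes.

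S100a8 and S100a9 encode the subunits of calprotectin, an antimicrobial protein of neutrophils and of inflamed or squamous epithelium. S100a8 lay between 5.24 and 6.04 in BEGM and between 5.58 and 6.30 in EpiX, and S100a9 between 5.23 and 5.92 and between 5.44 and 5.89. Both were background-level on all arrays and overlapped between the media. Of 17 measured leukocyte markers, 15 were background-level on all arrays, among them Ptprc (3.78 to 4.14 on all arrays) and the neutrophil receptor Csf3r (3.83 to 4.44). The other 2, chosen here after their values were seen, were Cd14 (10.95 to 12.00) and Cd68 (8.65 to 11.36), and limma called neither. The 1 leukocyte marker called was the background-level Cxcr2 (-1.25 ± 0.21, SE; adjusted p = 0.0222). S100b, a marker of glia and cartilage, lay between 4.48 and 5.41 on all arrays, beside the glial regulator Sox10 (5.21 to 5.58) and the cartilage proteoglycan Acan (4.93 to 5.51), all background-level. Of 9 cartilage and 5 glial markers limma called 0, with 0 at an unadjusted p under 0.05. Col2a1, the collagen of cartilage, lay between 6.54 and 7.49, with its highest value on BEGM array 3. S100a3, S100a5, S100a13, S100vp and S100z were background-level on every array too. S100pbp lay between 10.77 and 11.57 in BEGM and between 10.30 and 10.74 in EpiX, without overlap, and its adjusted p was 0.280.

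**Figure D3:**
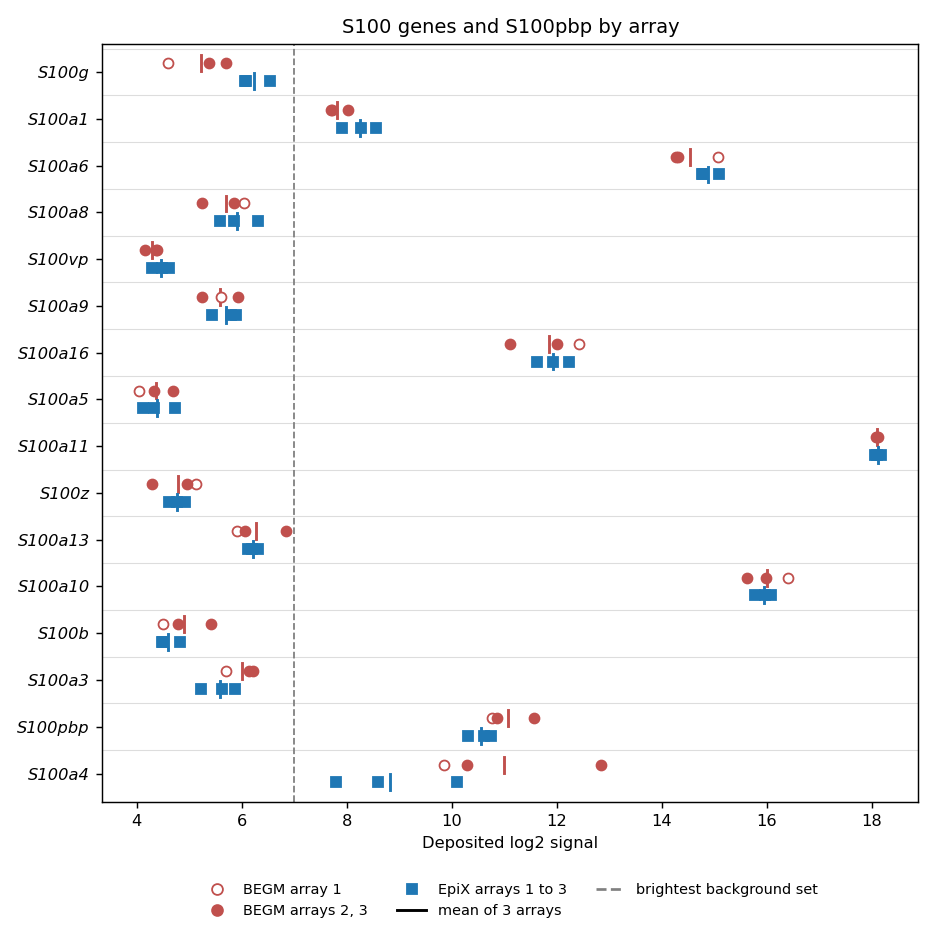
Deposited log2 signal (horizontal axis) of the 15 S100 genes and S100pbp on each array, with symbols, mean strokes and background line (6.99) as for the envelope genes. S100a4 spreads from 7.79 to 12.85, whereas S100a11 stays between 18.06 and 18.19 and 9 S100 genes lie wholly left of the background line.

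**Figure D4:**
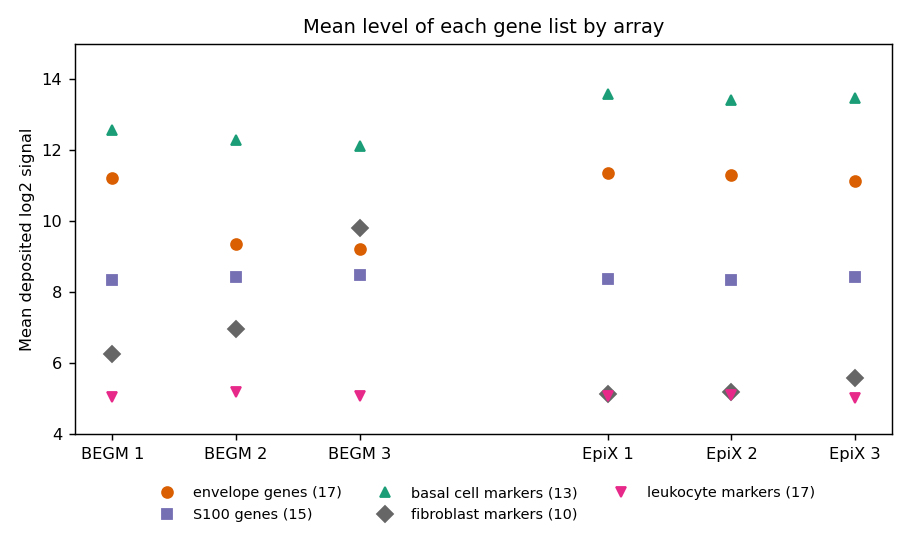
Mean deposited log2 signal (vertical axis) of the envelope genes, the S100 genes and 3 lists of marker genes on each of the 6 arrays, with the number of genes in brackets. The envelope mean is 11.23 on BEGM array 1 and 9.38 and 9.21 on BEGM arrays 2 and 3, the fibroblast mean is highest on BEGM array 3 at 9.83, and the S100 mean stays between 8.35 and 8.49.

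In gene order, 15 of the 33 genes belong to the epidermal differentiation complex. The RefSeq table of the GRCr8 assembly lists 71 protein-coding genes from S100a1 to S100a10, of which 25 were measured, namely 12 S100 genes and Sprr3, Sprr1a and Ivl among the 33 and 10 others. By limma 0 of the 25 were called, compared with 5.78% of all genes tested, a share at which few calls fall among 25 genes. An unadjusted p under 0.05 was found for 2, compared with 3377 of all 15037 genes. The 10 others include S100a7a, which overlapped between the media (6.32 to 8.43 in BEGM and 6.29 to 8.99 in EpiX, with array 1 highest in each; difference 0.24 ± 0.76, SE), and S100a7l2, at background level on all arrays (0.05 ± 0.16). They also include Kprp, a keratinocyte proline-rich protein, which was named after its values were seen. Kprp was higher on all EpiX arrays but at background level throughout (1.30 ± 0.35; adjusted p = 0.0810). Both proline-rich genes of the Sprr family lie between S100 genes on either side, with S100vp to one side and S100a11 to the other. Their differences of 2.20 and 1.11 stood between S100 genes whose differences lay between -0.43 and 0.43, apart from S100a4. Csta, Lgals7 and Tgm2, the called genes, lie outside the complex.

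**Figure D5:**
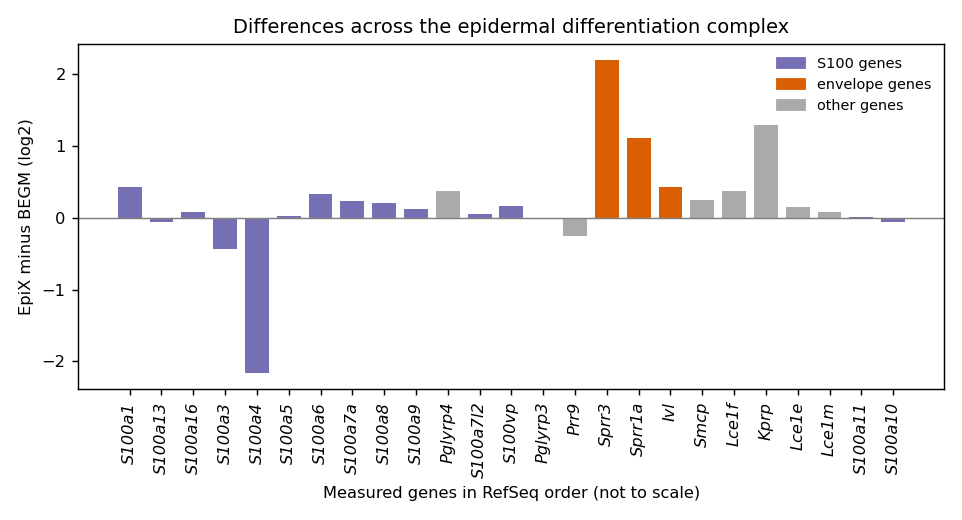
Difference between the media (EpiX minus BEGM, log2, vertical axis) for the 25 measured genes from S100a1 to S100a10 in the order of the RefSeq table, not to scale, with S100 genes in purple, envelope genes in orange and others in grey. The bars of Sprr3 (2.20), Kprp (1.30) and Sprr1a (1.11) stand up and that of S100a4 (-2.16) stands down, and none of the 25 passed the test over 6 arrays.

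Other genes of the same programme were read from 3 lists. Over all genes tested, limma called 2.63% higher and 3.15% lower in EpiX. Of 34 measured genes of the envelope, barrier and stratified keratins, 4 rose, 0 fell and 30 did not pass, with a median difference of 0.45. Without BEGM array 1, 14 rose and 1 fell, where 6.57% of all genes tested rose and 7.32% fell. The 4 were the kallikreins Klk10 (5.51 ± 1.09, SE) and Klk13 (4.60 ± 0.52), the secreted dermokine Dmkn (2.11 ± 0.25) and the lipoxygenase Alox12b (2.01 ± 0.38), which makes barrier lipids. Alox12b was background-level on all BEGM arrays and on 2 EpiX arrays, Dmkn on all BEGM arrays and Klk10 on 2 BEGM arrays. Klk10 read 9.96 on BEGM array 1 against 6.21 and 5.31 on the others, so that BEGM array 1 was the highest of its medium, as it was for Spink5, Sbsn and the plakins. Of 26 regulators of stratified differentiation 4 rose and 0 fell, with a median of 0.62. They were the receptor Notch1 (2.22 ± 0.29), Tp63 as given above, Klf5 (1.54 ± 0.26) and Cebpa (0.67 ± 0.14), which was background-level on 2 BEGM arrays. Without BEGM array 1, 10 of the regulators rose and 1 fell, where 6.57% of all genes tested rose and 7.32% fell. Of 14 partners and receptors of S100 proteins 0 rose and 1 fell, the annexin Anxa6 (-1.02 ± 0.16), with a median of -0.02.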

How the data were processed

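The authors' deposited values are log2 signals of 24834 probe sets on 6 Affymetrix arrays. That they are log2 was inferred from their range, and no source used here states the base, normalization, scale or centring. Software named in the submitters' processing notes is the Transcriptome Analysis Console, with no role stated. Detection calls and scanner output were not used here, and the number of arrays limits the precision.

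The 15049 probe sets with 1 platform gene symbol (0 had several) were reduced to the brightest per gene, leaving 15037 genes. With the medium as its sole term, a linear model was fitted to all of them with limma 3.58.1 (lmFit, eBayes) in R 4.3.3, with no filter, 2-sided p-values and Benjamini-Hochberg adjustment over all genes. The fit was tested on simulated data, and recovered 81 of 100 genes changed by 2 log2 units and 99 of 100 changed by 4. The simulated arrays were independent, with spreads shuffled among genes and no outlying array or pairs. These shares therefore do not give the chance of a call for the genes described here. Plots used matplotlib 3.10.9.

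The genes, the lists and the tests were chosen with earlier results of these data known. Genes called, or with a difference of at least 1, are given on every array. In the pathway lists up to 4 called genes per direction are named, and in the cell type lists the defining markers, plus those said to be named after their values were seen.

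After the group means were removed, arrays of the same number correlated over genes at 0.32, -0.01 and 0.32 for numbers 1, 2 and 3, and arrays of other numbers at -0.37 to 0.16. The pairing comes from the labels, which say that each line was split and number the samples, but do not tie a number to a line. Where nothing shows that arrays of a medium are separate cultures, p-values measure only the spread between them.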

Additional observations from a re-analysis of the deposited data

How the results depend on the processing

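Over 6 arrays 2 of the 33 genes were called higher in EpiX and 1 lower. The number called higher was 6 with the replicate number as a block, 4 with it as a random block, 4 with each array centred on its median and 6 with array weights. It was 2 with quantile normalization, with a trended and robust variance and with probe sets averaged per gene, and 3 without the dimmest 25% of genes. The number called lower was 2 with the replicate block and 1 in the other settings that kept all arrays. Leaving out arrays, single or by number, gave 0 to 12 genes called higher and 0 to 1 lower by limma, with 3 to 19 of the 33 genes at an unadjusted p under 0.05, and fewer arrays also weaken the test. Over all genes, 869 were called, 1987 with array weights, and 0 to 2089 when arrays were left out. The median difference over the 33 genes was 0.34, and 0.23 to 0.39 when single arrays were left out. Among the differences given, the sign turned for Tgm1, to 0.0194 with median centring and 0.0407 with array weights, and lay between -0.39 and 0.16 when arrays were left out. It also turned for S100a11, which lay between -0.0207 and 0.0431 when arrays were left out. Tgm3 passed with the random block (adjusted p = 0.0488), median centring (0.0486) and array weights (0.0333), and Cnfn with array weights (0.0273). The replicate block changed no call other than those given beside the genes. Signals at background level on all arrays limit what can be read for 11 of the 33 genes. The limit also touches the called genes, since all BEGM values of Csta and Lgals7 and all EpiX values of Tgm2 were background-level. Their fold sizes depend on it. Background-level values also occurred for Sbsn (2 BEGM arrays), Spink5 (1 BEGM array) and Ivl (3 BEGM arrays and 1 EpiX array).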
